A study of Ovis aries with 49 samples.

Results

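EDNRA, F2RL2, PTPRB and NRP2 are genes for receptors of the vessel wall. They were taken by gene symbol from lists of single-nucleotide polymorphisms (SNPs) with unequal reads of the paternal and maternal allele in fetal sheep (Ovis aries). They are 4 of 7164 listed genes and hold 65 of 39974 listed entries, an entry being 1 SNP in 1 library. EDNRA has 17 entries, F2RL2 22, PTPRB 19 and NRP2 7. The genes were picked with earlier results on their paternal shares and read depths in these libraries known, so those values are given here as a description.

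EDNRA encodes the endothelin type A receptor, through which endothelin 1 contracts vascular smooth muscle. F2RL2 encodes protease-activated receptor 3, which thrombin cleaves and which in mouse platelets helps thrombin to activate protease-activated receptor 4. PTPRB encodes VE-PTP, a tyrosine phosphatase of endothelial cells that restrains the angiopoietin receptor TEK and associates with VE-cadherin. NRP2 encodes neuropilin 2, a co-receptor for class 3 semaphorins and for vascular endothelial growth factors (VEGF), known for its part in lymphatic vessel growth.

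Brain, kidney and lung came from 15 F1 fetuses at gestation day 135, 45 RNA libraries in all. The dams were Western white-faced ewes and the sires 4 Dorset rams. From day 30 the ewes were fed 140% (overfed, Over, 4 fetuses), 60% (restricted, Res, 4 fetuses) or 100% (control, Con, 7 fetuses) of the energy requirement set by the National Research Council. The 15 fetuses came from 12 ewes, 4 per diet, by the numbers in the sample descriptions. By those numbers Con1, Con5 and Con7 share a ewe, as do Con4 and Con6, whereas the labels speak of 3 twin pairs. Blood DNA of the rams was sequenced to know the father's base. All sires were Dorset and all dams white-faced, with no reciprocal cross, so parent and breed cannot be told apart. The tissues were sampled whole, and fewer cells of a type and less RNA per cell cannot be told apart in them.

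A SNP is called informative here where the father was homozygous and the fetus heterozygous. The entry with the fewest reads had 20.5, and the least unequal entry had 70.02% of its reads on the higher allele, so a listed paternal share lies below 30% or above 70%. An informative SNP that is not listed had either too few reads or a more balanced share, and the lists do not tell which. Libraries held 272 to 1420 entries in brain, 172 to 1276 in kidney and 709 to 1993 in lung, with median reads per entry of 27.0 to 34.0, 27.5 to 34.0 and 30.0 to 46.5. Lung libraries thus gave more entries and deeper ones. As a check of the tissue labels, kidney epithelium markers were listed for 6 of 10 genes in kidney, 3 in lung and 1 in brain. Lung epithelium markers were listed for 1 of 10 genes in lung and for 0 in kidney and brain. Neuron and glia markers were listed for 3 of 10 genes in brain, 2 in kidney and 1 in lung. An unlisted marker is not thereby an absent one.

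EDNRA and F2RL2 were listed mainly in lung, whereas PTPRB and NRP2 were spread thinly over the tissues. EDNRA had 21 informative SNPs on chromosome 17 between positions 10405190 and 10477601, which made 70 pairs of a SNP and a fetus. Of these pairs 22.9% were listed in lung, 1.43% in kidney and 0% in brain. F2RL2 had 26 informative SNPs on chromosome 7 between positions 7635770 and 7643511, and 15.6% of its 122 pairs were listed in lung, 2.46% in kidney and 0% in brain. PTPRB had 55 informative SNPs on chromosome 3 between positions 148753858 and 148877447, and 2.08% of its 288 pairs were listed in lung, 3.47% in kidney and 1.04% in brain. NRP2 had 35 informative SNPs on chromosome 2 between positions 206807439 and 206884978, and 1.02% of its 98 pairs were listed in lung, 4.08% in kidney and 2.04% in brain. Over all genes the shares were 3.65% in lung, 2.62% in kidney and 2.20% in brain. Positions are as the deposited lists print them, and their genome build was not given in the sources used. The lists place each SNP in a numbered annotation feature of its gene, and coding and untranslated sequence were not separated here.

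**Figure D1:**
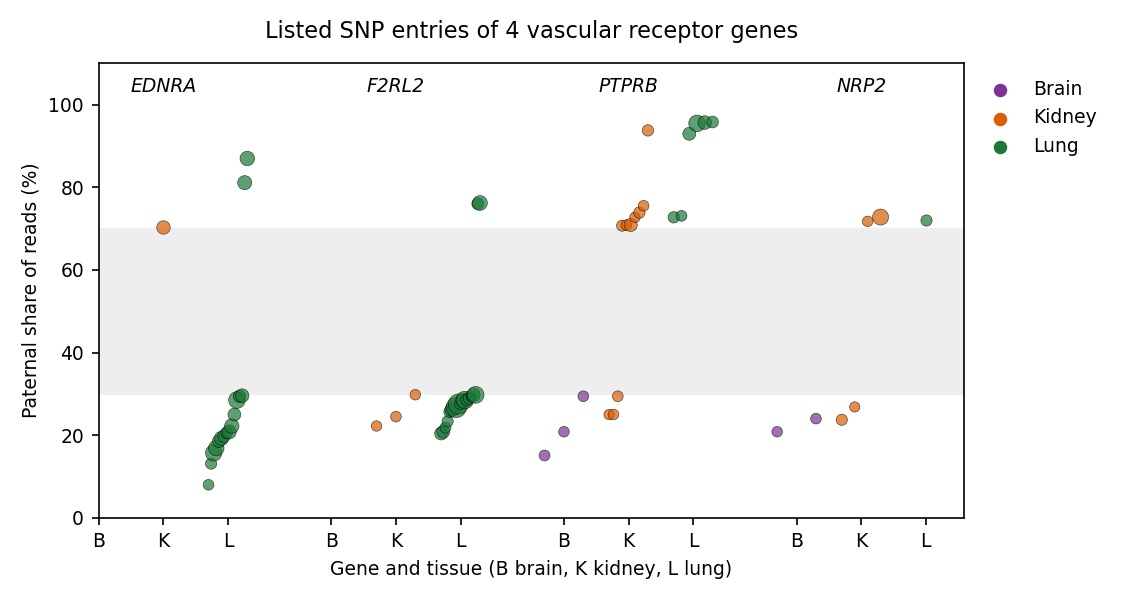
Paternal share of reads (vertical axis, percent) at each of the 65 listed entries of EDNRA, F2RL2, PTPRB and NRP2, by gene and tissue (B brain, K kidney, L lung). Each point is 1 SNP in 1 library, its area grows with the reads, the spread along the horizontal axis is by rank only, and the grey band is the range from which no entry was listed. The EDNRA and F2RL2 points crowd below 30% in lung, while the 6 PTPRB points in lung lie above 70%.

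EDNRA rested on a single SNP. At C10412447A (reference base, position counted along the chromosome, alternative base) all 4 rams carried only the reference base and all 15 fetuses were heterozygous, so the reference base was paternal in every fetus. It was listed in 12 of 15 lung libraries, each time with more maternal reads, and in 0 kidney and 0 brain libraries. Such SNPs are few in the series. Of 146487 distinct informative SNPs, 417 (0.285%) were informative in all 15 fetuses. The reference base was paternal throughout at 385 of these 417 SNPs, and 34 of the 417 were listed in at least 12 lung libraries. The 1441 lung entries of all 417 SNPs lay on the maternal side in 952 cases.

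In overfed lungs the paternal share at C10412447A was 28.5% of 100 reads in Over1, 8.0% of 25 reads in Over3 and 19.8% of 45.5 reads in Over4. In restricted lungs it was 16.9% of 83 reads in Res2, 20.5% of 36.5 reads in Res3 and 25.0% of 48 reads in Res4. In control lungs it was 18.6% of 48.5 reads in Con1, 29.6% of 57.5 in Con2, 29.4% of 42.5 in Con3, 22.2% of 67.5 in Con4, 20.8% of 62.5 in Con5 and 19.2% of 65 in Con6. The diets overlapped throughout, and Over3 with the fewest reads had the lowest share. Its 95% Wilson interval ran from 2.22% to 25.0%, and that of Over1 from 20.6% to 38.0%. The highest upper bound of the 12 intervals was 44.3%, in Con3. These intervals, here and below, treat the averaged reads as counts and cover counting error only. The means were 18.8% ± 10.3 in overfed lungs (SD, n = 3), 20.8% ± 4.07 in restricted lungs (n = 3) and 23.3% ± 4.96 in control lungs (n = 6). The lung libraries of Over2, Res1 and Con7 were informative but did not list the SNP.

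Read depth at C10412447A sorted otherwise than the share. As counted, reads overlapped, with 25 to 100 in overfed, 36.5 to 83 in restricted and 42.5 to 67.5 in control lungs. After each library was scaled by its median log2 deviation from the SNP means over the 278 SNPs listed in at least 50% of lung libraries, the depth on the scale of log2(reads + 1) was 5.45 in Over1, 5.31 in Over3 and 5.25 in Over4. It was 5.92 in Res2, 5.86 in Res3 and 6.29 in Res4. It was 6.01 in Con1, 6.05 in Con2, 5.72 in Con3, 6.17 in Con4, 5.86 in Con5 and 5.77 in Con6. After this scaling all 3 overfed lungs thus lay below the 9 others, which overlapped each other. How many other lung SNPs part the overfed libraries from the rest in this way was not counted. Over1 was the most deeply read lung library, with a scaling factor of 1.21 on the log2 scale, while those of Over3 and Over4 were -0.61 and 0.29. Among the fetuses of ram 4, scaled depth was 5.31 and 5.25 in Over3 and Over4, 6.29 in Res4 and 5.72 to 6.17 in Con2, Con3, Con4 and Con6. The libraries were read in several sequencing runs, and which run a library came from is unknown here, so run and diet cannot be told apart.

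**Figure D2:**
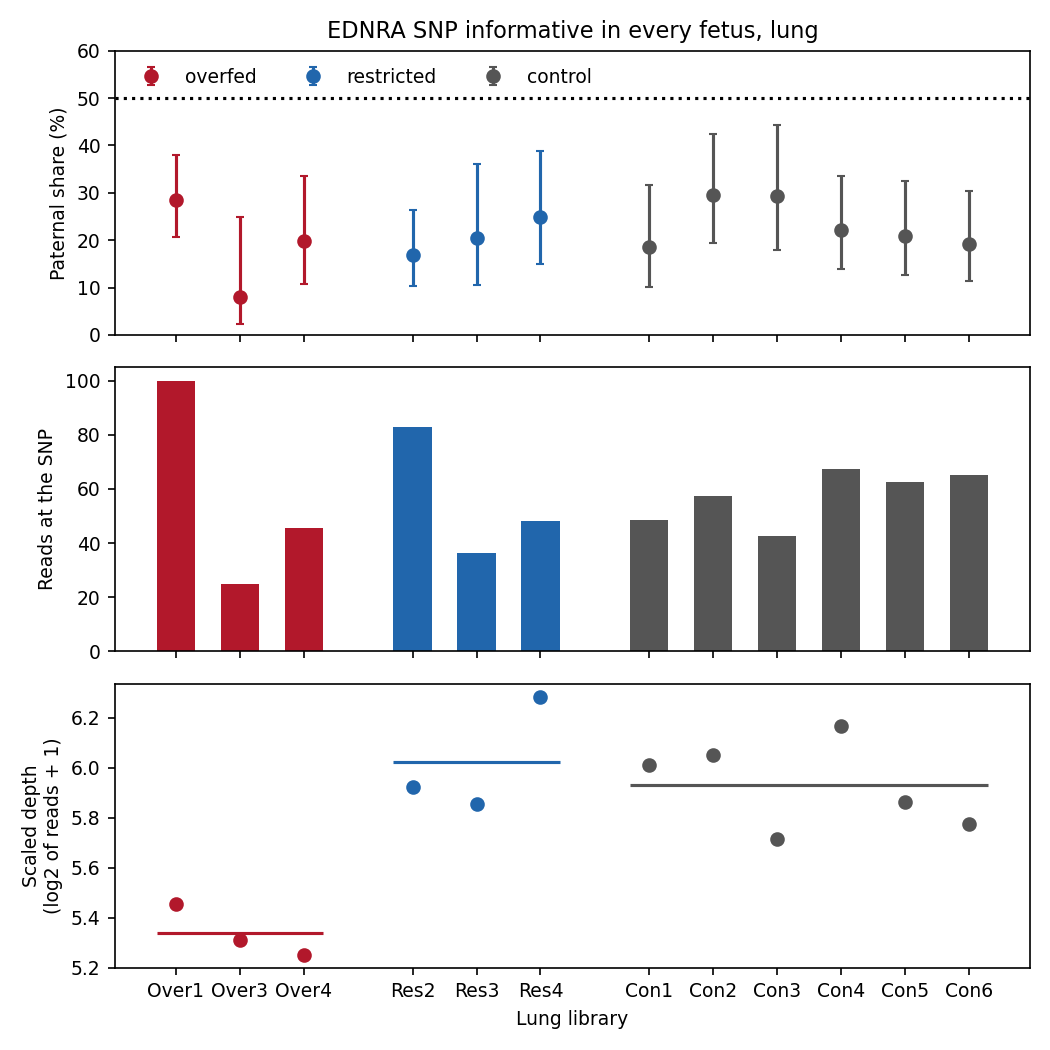
EDNRA C10412447A in the 12 lung libraries that listed it, overfed to the left, restricted in the middle and control to the right: paternal share in percent with 95% Wilson intervals (top), reads at the SNP (middle) and scaled depth as log2(reads + 1) with a line at the mean of each diet's libraries (bottom). Shares and reads as counted overlap between the diets. Only the scaled depths of the overfed lungs, 5.25 to 5.45, lie below all others, 5.72 to 6.29.

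With littermates averaged, limma put the log2 depth difference at C10412447A, overfed minus control, at -0.58 ± 0.15 (SE; 3 ewes against 4; 95% interval -0.91 to -0.25), with a Benjamini-Hochberg adjusted p of 0.551 over 410 SNPs. Overfed minus restricted was -0.68 ± 0.17 (3 ewes against 3; 95% interval -1.05 to -0.31), adjusted p = 0.450 by limma over 297 SNPs. Restricted minus control was 0.10 ± 0.15 (3 ewes against 4), adjusted p = 0.999 by limma over 347 SNPs. None of these passed the threshold of 0.05, and 0 SNPs (0%) passed in any of the 3 depth contrasts by limma, where 27, 11 and 8 SNPs had an unadjusted p under 0.05. Without the scaling, overfed minus control shrank to -0.17 and overfed minus restricted to -0.11. For the share, as the natural log of the ratio of paternal to maternal reads, the differences were -0.40 (adjusted p = 0.995), -0.19 (adjusted p = 0.988) and -0.22 (adjusted p = 0.947) by limma in the same order. Single lungs weighed heavily: without Over3, overfed minus control was -0.04 and overfed minus restricted turned to 0.18. Without Over1, overfed minus control was -0.70. Again 0 SNPs (0%) passed in any of the 3, with 13, 14 and 12 SNPs at an unadjusted p under 0.05. The 95% interval of overfed minus control ran from -1.05 to 0.24, wider on the side of a lower share in overfed lungs. The contrasts with overfed ewes share the overfed libraries.

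The other EDNRA entries did not lie on a single side. T10406741C was informative in 2 fetuses of ram 4 and had 51.5 paternal and 12 maternal reads in the lung of Con2 (81.1%) and 60 paternal and 9 maternal in that of Con6 (87.0%). In the same 2 lungs C10412447A had 29.6% and 19.2%, so the gene's paternal share depended on which SNP was read. C10472040G, near the other end of the informative stretch, had 15 paternal and 80.5 maternal reads in the lung of Over1 (15.7%) and 4 paternal and 26.5 maternal in that of Over2 (13.1%). In Over1 these 2 SNPs lay on the same, maternal side. The single kidney entry, C10407411T in Res3, had 39 paternal and 16.5 maternal reads (70.3%), at the edge of the listed range. Con2, Con4 and Con6 had 7 or 8 further informative EDNRA SNPs each, of which 1, 0 and 1 were listed in lung. The reference base was the higher one in 3 of 17 EDNRA entries, against 45.3% of all entries of the series, but 12 of the 17 are C10412447A alone. By SNP, the reference base was higher at T10406741C and C10407411T, and the alternative base at C10412447A and C10472040G.

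F2RL2 was listed at several SNPs in most of its fetuses, and these lay on the same side within a fetus. Its 19 lung entries lay at 13 SNPs in 8 fetuses, and each fetus with more than 1 listed SNP, 7 of the 8, had all of them on the same side. Some of these SNPs lie close together, such as C7636132A and G7636139A in Over4 and Res3. So do C7635770T and T7635813C in Res1, and A7643436G and C7643460T in Res3. Close SNPs can count the same reads, so their agreement is not that of separate measurements. At C7636132A, the SNP listed most often, 43 of 161 lung reads were paternal in Over4 (26.7%), 10 of 49 in Res3 (20.4%), 32.5 of 114 in Con4 (28.5%) and 30.5 of 102.5 in Con6 (29.8%). Res3 was lowest, and Con4 and Con6 lay just inside the listed range. Summed over the listed SNPs of a fetus, the paternal share was 27.2% in Over3 and 27.1% in Over4, 24.5% in Res3 and 25.7% in Res4, and 27.4% in Con3, 28.5% in Con4 and 29.3% in Con6. These 7 fetuses had rams 3 and 4 as sires. Res1, by ram 1, stood on the other side, with 28.5 of 37.5 reads paternal at C7635770T (76.0%) and 56 of 73.5 at T7635813C (76.2%), 2 SNPs that were informative in no other fetus.

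In 6 of the 8 fetuses the paternal base was the reference base at every listed lung SNP, and in Res3 and Res4 both kinds of SNP were listed. In Res3 the reference base was paternal at 3 of 6 listed lung SNPs and the alternative base at the other 3, and all 6 had more maternal reads, with shares of 20.4% to 29.7%. Res4 had 23.3% at G7636887A, with the reference base paternal, and 29.3% at C7643460T, with the alternative base paternal. The 3 kidney entries lay on the maternal side too. In the kidney of Res3 the shares were 24.5% at A7636036G and 29.8% at A7637904G, against 29.7% and 27.6% in its lung, and the Wilson intervals overlapped widely. In the kidney of Con6 A7636036G had 22.2% of 22.5 reads.

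**Figure D3:**
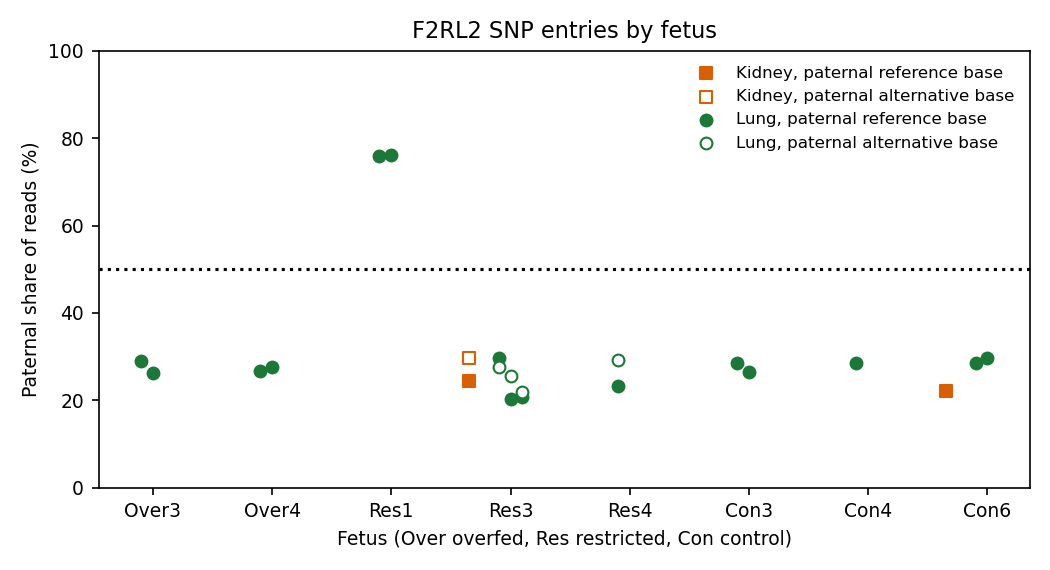
Paternal share of reads (percent) at each listed F2RL2 SNP by fetus, overfed to the left, restricted in the middle and control to the right; circles are lung, squares kidney, filled where the reference base was paternal and open where the alternative base was, with small sideways shifts for legibility only. Res1 stands at 76.0% and 76.2%, and the entries of the other 7 fetuses lie between 20.4% and 29.8%, with open and filled symbols mixed in Res3 and Res4.

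In the RefSeq gene table of assembly ARS-UI_Ramb_v3.0, F2RL2 overlaps IQGAP2, a scaffold protein gene, and next to F2R, the gene of the main thrombin receptor. The library kit is not stated to keep the strand, so reads of overlapping genes cannot be told apart. IQGAP2 entries in lung lay on the paternal side, with 72.4% of 29 reads at T7723827C in Con4, 71.4% of 21 reads at G7724340A in Con3, and 74.6% and 71.2% at G7723671T and T7724250C in Over4. F2RL2 lay on the maternal side in these 3 lungs. The 10 kidney entries of IQGAP2 went both ways, with 28.6% in Over4, 26.1% and 26.9% in Con4, 73.2% to 76.2% in Over2 and 70.4% to 82.5% in Con3. F2R had 3 kidney entries and 1 lung entry, which stood at 70.9%.

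F2RL2 was compared between diets over all its listed SNPs in lung, since no SNP was listed in enough ewes. Scaled depth averaged 6.62 in 2 overfed ewes, 5.69 in 3 restricted ewes and 6.17 in 2 control ewes, on the log2 scale. Overfed minus restricted was 0.93 ± 0.36 (SE), with an adjusted p of 0.822 by limma, and 0 of 347 genes (0%) passed, with 17 at an unadjusted p under 0.05. The difference mixes SNPs, because different SNPs were listed in different fetuses. In the paternal share, restricted minus control was 0.59 ± 0.71 on the natural-log scale (adjusted p = 0.930 by limma), with Res1 among the restricted ewes. In that contrast 1 of 388 genes (0.258%) passed, and it was not F2RL2 or EDNRA.

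PTPRB carried the most unequal reads of the 4 genes, again at a single SNP. C148873471T was informative in 4 fetuses and listed in the lungs of all 4, with the reference base paternal. It had 94.5 paternal and 4.5 maternal reads in Over1 (95.5%), 46 and 3.5 in Over4 (92.9%), 55 and 2.5 in Res1 (95.7%) and 34 and 1.5 in Con2 (95.8%). The 4 lungs, from 3 diets, did not differ beyond their Wilson intervals, of which the lowest bound was 82.3%. In the kidney of Res1 the same SNP had 30 paternal and 2 maternal reads (93.8%; 95% Wilson interval 79.9% to 98.3%), close to the 95.7% of the lung of that fetus.

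The neighbouring SNPs were not listed with it. The same annotation feature held 26 other informative SNPs in Over1, 26 in Over4 and 19 in Res1, and 0 of them were listed in lung. The nearest lay 77 bases away in Over1 and Over4 and 766 bases away in Res1. At 99 reads in Over1 the SNP itself was far above the depth minimum, but depth at the unlisted SNPs is not in the lists. Elsewhere in the gene, A148820993G had 24 of 33 lung reads paternal in Over4 (72.7%) and G148872910C 19 of 26 in Res3 (73.1%), both near the limit of the listed range.

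**Figure D4:**
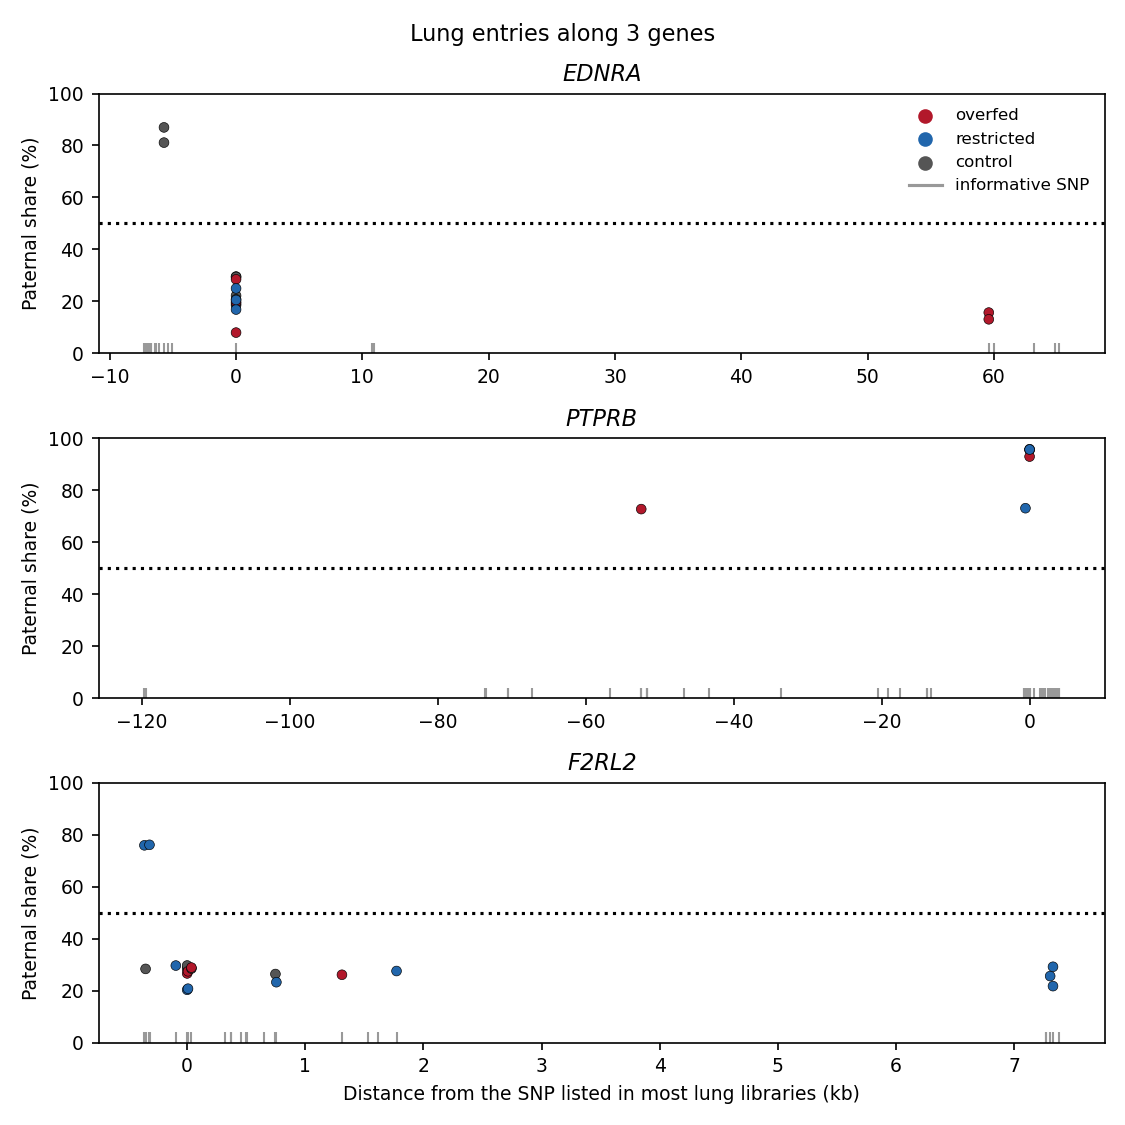
Paternal share of reads (percent) at the listed lung entries of EDNRA, PTPRB and F2RL2 against distance in kilobases from the SNP listed in most lung libraries of each gene; points are coloured by maternal diet, overfed red, restricted blue and control grey, and grey ticks at the foot mark every SNP informative in at least 1 fetus, at one fixed height. Most ticks of EDNRA and PTPRB have no point above them, PTPRB has its 4 highest points at 1 site, and EDNRA has points on both sides of 50%.

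PTPRB in kidney was mixed. It had 10 entries at 10 SNPs in 5 libraries, 7 on the paternal and 3 on the maternal side. Kidney reads summed over listed SNPs were 72.7% paternal in Over3, 77.9% in Res1 and 25.0% in Res4, and 52.0% in Con3 and 70.9% in Con4. Con3 held a SNP on either side, G148855956A at 75.5% and T148876129C at 29.4%, each with fewer than 30 reads. The 3 brain entries, 1 in Over4 and 2 in Con7, lay on the maternal side at 15.1% to 29.4% of 24 to 26.5 reads. No PTPRB SNP was listed in 3 fetuses in both kidney and lung, nor was a SNP of the other genes, so tissues could be compared only over all listed SNPs of a gene. On the natural-log scale PTPRB kidney minus lung was -1.86 ± 0.52 (SE), with an adjusted p of 0.206 by limma, and 3 of 738 genes (0.407%) passed. That fit did not pair the tissues of a fetus. With the fetus as a block the share difference was -1.67. That value rests on Res1 alone, the only fetus with PTPRB listed in both kidney and lung. The PTPRB depth difference, also unpaired, was 0.15 ± 0.23 on the log2 scale (adjusted p = 0.729 by limma), in a contrast where 150 of 738 genes (20.3%) passed. Its direction turned with the fetus as a block (-0.59), again from Res1 alone, and without scaling (-0.68). Other SNPs entered in kidney than in lung.

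NRP2 had 7 entries, each at a SNP listed in a single library. In kidney 5.5 of 20.5 reads were paternal in Res1 (26.8%, T206882024C) and 7 of 29.5 in Res3 (23.7%, C206865549A), against 65.5 of 90 in Con2 (72.8%, T206884940C) and 16.5 of 23 in Con4 (71.7%, G206813101A). The restricted and control fetuses did not overlap, but the 4 SNPs differ and the lists leave out shares near 50%. How many of the other kidney genes part these diets in this way was not counted. Restricted minus control was -1.96 ± 0.26 on the natural-log scale (SE; 2 ewes against 2), with an adjusted p of 0.136 by limma, and 0 of 304 genes (0%) passed, with 10 at an unadjusted p under 0.05. The lung of Con6 had 72.1% of 30.5 reads at C206884053T. The brain of Con5 had 24% of 25 reads at A206864416C and 20.8% of 24 at A206883512G. The T206884940C SNP was informative in 6 further fetuses and listed in none of them.

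Read by gene, EDNRA, F2RL2 and PTPRB could be tested for a mean share away from 50% in lung, and PTPRB and NRP2 in kidney. In lung 3 of 3 passed by limma, where 60.9% of 1476 genes passed, and in kidney 0 of 2 passed, where 66% of 1047 genes did. The lists leave out balanced SNPs, so passing says little about a gene. The pass of F2RL2 was lost with littermates averaged (adjusted p = 0.0710 by limma) and on leaving out any 1 of its 7 maternal-side fetuses. The gene means in lung were 25.2% ± 14.4 for EDNRA (SD, n = 13 fetuses), 33.2% ± 17.4 for F2RL2 (n = 8) and 89.0% ± 10.03 for PTPRB (n = 5). In kidney they were 59.7% ± 21.7 for PTPRB (n = 5) and 48.8% ± 27.2 for NRP2 (n = 4). The mean of F2RL2 joins 7 fetuses below 30% with Res1 at 76.1%, and describes none of them. No SNP of the 4 genes was seen with the reference base paternal in some fetuses and the alternative base in others.

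The partners of these receptors were listed unevenly. Of the endothelin axis 3 of 7 genes were listed in any tissue, of the angiopoietin and TIE axis 4 of 7, of the VEGF and neuropilin axis 14 of 23, and of the thrombin receptor list 6 of 10. Of 18 receptors of vascular tone 7 were listed, and all 7 junction phosphatases and partners were. EDN1, the ligand of EDNRA, had 6 informative SNPs and no listed entry. EDNRB, the endothelin type B receptor gene, averaged 55.6% ± 27.8 in lung (SD, n = 6) and did not pass. TEK, the receptor that VE-PTP acts on, was listed in 1 lung library at 70.7% and 1 kidney library at 27.3%.

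In the VEGF and neuropilin list 3 of 6 genes tested in lung passed, all on the maternal side, against 578 maternal-side and 321 paternal-side calls among the 1476 genes. KDR, the main VEGF receptor of endothelium, averaged 18.2% ± 4.51 at 1 SNP (SD, n = 5), SEMA3C 28.9% ± 8.34 (n = 6) and SEMA3F 22.2% ± 3.91 (n = 8). SEMA3F, a semaphorin ligand of NRP2, averaged 16.9% ± 6.22 in kidney (n = 5), on the same side. In 1 kidney library each, KDR stood at 70.7% and SEMA3C at 49.5%, and neither was tested there. The reference base was paternal at every listed lung and kidney SNP of KDR and SEMA3F. NRP1 averaged 71.6% ± 37.3 in lung (n = 3), PLXNA2 34.5% ± 17.7 (n = 6) and PLXNA4 49.5% ± 20.5 (n = 3), and none of them passed. In kidney 2 of 3 passed, SEMA3F and PLXNA2 (25.2% ± 2.39, n = 4), where 66% of 1047 genes did. In brain 0 of 3 passed, with PLXNA2 at 58.7% ± 25.7, PLXNA3 at 55.9% ± 40.5 and PLXNA4 at 40.5% ± 20.6, where 65.5% of 863 genes did.

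Among the receptors of vascular tone, 2 of 2 tested in lung passed, where 60.9% of all genes did. The angiotensin receptor gene AGTR1 (28.0% ± 19.9, n = 7) and the natriuretic peptide receptor gene NPR2 (17.4% ± 3.52, n = 3) lay on the maternal side. In kidney AGTR1 averaged 95.7% in 2 libraries and was not tested. NPR2 passed on the maternal side in kidney (13.2% ± 2.20, n = 3) and brain (19.3% ± 9.37, n = 3) as well, where 66% and 65.5% of genes passed. It was listed at 1 SNP in lung and 1 SNP in kidney, with the reference base paternal, and at 2 SNPs in brain. TFPI, an inhibitor of coagulation, averaged 47.0% ± 27.3 in lung (n = 7) and F2R 61.6% ± 28.3 in kidney (n = 3), and neither passed. PTPRM, another phosphatase of endothelial junctions, averaged 25.6% ± 3.29 in kidney (n = 4) and passed there, as did 66% of genes. It averaged 70.4% in lung (n = 2) and 28.0% in brain (n = 2). Of 12 endothelial markers 6 were listed, and VE-cadherin (CDH5) was listed in 4 libraries. Of 11 smooth muscle and pericyte markers 8 were listed. In lung 2 of 3 such markers tested passed, where 60.9% of all genes did. These were ACTA2 (27.3% ± 2.16, n = 3) and ABCC9 (32.7% ± 18.3, n = 8), on the maternal side, while DES (29.2% ± 28.9, n = 5) did not pass. The lung markers listed too seldom to be tested went both ways. CSPG4 averaged 26.5% (n = 2), RGS5 49.9% (n = 2), PDGFRB 86.6% (n = 2) and MYH11 89.6% (n = 1). In kidney ABCC9 averaged 59.2% (n = 4) and ACTA2 44.1% (n = 3), and neither passed. MYH11 stood at 75.7% and TAGLN at 72.0% in 1 kidney library each. Of the endothelial markers 1 was tested in lung, ERG at 72.4% ± 26.4 (SD, n = 6), and 0 passed. Their summed reads per library were 0 to 112.5 for the endothelial and 0 to 404.5 for the muscle markers in lung. Their part in the results for the 4 genes was not tested.

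Likeness of depth was weak. Over the libraries shared with each of 75 candidate genes, the Spearman correlations with EDNRA were highest for LOC101109495 (0.64, 13 libraries), YIF1A (0.59, 12 libraries) and FBXO18 (0.58, 13 libraries). For PTPRB, with 11 candidates, they were highest for CLK1 (0.36), AHNAK (0.34) and RPL9 (0.20), each over 12 libraries. All values in a library share its depth and the listing filter. NRP2 and F2RL2 were listed in too few libraries for this measure.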

How the data were processed

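Per the labels, the authors made the deposited estimated counts, the reads per allele at SNPs, by averaging each RNA library's coverage on a reference and an alternative genome, and 65.3% of entries hold a value that is not whole. SAMtools, Picard, HISAT2 2.0.5 and Trimmomatic 0.33 are the tools that the submitters' processing notes name. No source used here gave the genome build or the variant caller. The ram lists gave genotypes only.

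Shares were tested as the empirical logit (natural log, 0.5 read added per allele) and depth as log2(reads + 1) scaled per library, using limma 3.58.1 in R 4.3.3 with Benjamini-Hochberg adjustment over all SNPs or genes of a contrast and a threshold of 0.05. Parental bias needed values in 3 fetuses. Diet contrasts averaged littermates by ewe number and needed 2 ewes per diet. Parental bias was tested per gene over 15 fetuses of a tissue, and tissues in 1 fit over 45 libraries. The fits were checked on simulated data. Kidney and lung of a fetus are the same animal, but the main tissue fit compared group means without pairing them. The fetus as a block, which pairs them, was an alternative. Within fetuses, the deviations of kidney and lung in paternal share correlated at 0.0851 to 0.654. Alternatives were other read minima, added reads, units, scaling, a replicate block and leaving out each fetus.

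Members, gene lists and tests were chosen with earlier results of these data known. All 4 members were named, and genes of the 6 pathway lists where listed in at least 3 libraries of a tissue. Marker lists were given by counts. EDN1, TEK, CDH5, ERG, ACTA2, ABCC9, DES, CSPG4, RGS5, PDGFRB, MYH11, TAGLN and IQGAP2 were named outside that rule, after their values were seen. So were the F2R value in lung, the AGTR1, KDR and SEMA3C values in kidney and the PTPRM values in lung and brain. Where replicates are not stated to be separate preparations, p-values measure the spread between these samples. No sequence was printed, since no genome was used.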

Additional observations from a re-analysis of the deposited data

Results flagged for a closer look

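Of 15 groups of 4 to 10 libraries checked for a value far from the rest, 3 were flagged, and chance flags about 1 in 20 groups. F2RL2 in lung had a paternal share of 76.1% in Res1, where the 7 other fetuses lay between 24.5% and 29.3%. No listed entry has a share between 30% and 70%, and no F2RL2 lung library held SNPs on both sides. A single F2RL2 fetus on the other side thus stands apart by construction, and the chance rate does not apply to it. NRP2 in kidney had 90.0 reads per listed SNP in Con2, against 20.5 to 29.5 in the 3 others. PTPRB in kidney had 51.5 reads per listed SNP in Con4, against 22 to 29.4 in the 4 others. Each comes from 1 or 2 SNPs. Reads per listed SNP cannot fall below the listing minimum, and the NRP2 and PTPRB kidney entries are at different SNPs in each library. The chance rate therefore need not hold for the flags on reads either.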

How the results depend on the processing

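Of 445 alternative values, 418 kept their direction and side of the threshold or, for counts of calls, stayed within 1.5 times. The EDNRA depth differences in lung kept their sign, overfed minus control, at -0.65 to -0.52 when each fetus was left out, and overfed minus restricted at -0.76 to -0.54, with adjusted p from 0.255 to 0.962 over all alternatives of both. Restricted minus control reversed without scaling (-0.053) and ranged from -0.031 to 0.19 on leaving out a fetus. The EDNRA share, overfed minus restricted, reversed to 0.18 with at least 30 reads and ranged from -0.49 to 0.18 on leaving out a fetus, the highest without Over3. For share, restricted minus control, 0 SNPs were called, against 1 gene in the fit per gene, 1 SNP with each fetus a unit and 4 SNPs with the replicate block. SNPs called for depth with the replicate block were 1 for restricted minus control and 2 for overfed minus control. The replicate numbers pair no ewes across diets. With at least 30 reads 427 genes were called in kidney, against 691. Without scaling 72 genes were called for depth, kidney minus lung, against 150. Share calls, kidney minus lung, were 2 to 5 on leaving out a fetus. PTPRB depth, kidney minus lung, reversed with the paired replicate block (-0.59), which rests on Res1 alone, and without scaling (-0.68). On leaving out a fetus it ranged from -0.022 to 0.32, lowest without Res4. The NRP2 kidney logit of -0.05 ranged from -0.39 to 0.30 on leaving out a fetus, and was above 0 without Res1 (0.25) and without Res3 (0.30). The lung call of F2RL2 was lost with littermates averaged (adjusted p = 0.0710, limma) and on leaving out any 1 of the 7 maternal-side fetuses (adjusted p 0.0694 to 0.0761), and PTPRB in kidney was gained without Res4 (adjusted p = 0.0343, limma). The causes were not tested. A listed entry can rest on as few as 20.5 reads, and SNPs outside the lists have no depth here.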
